A study of Ciona robusta with 15 samples.

Results

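Neurog, Ebf, Pou4 and Islet are 4 transcription factors that act in the formation of neurons. Their transcripts were followed in whole embryos of the ascidian Ciona robusta, a marine chordate, after notochord factors had been placed in neural tissue. The genes were taken by their gene model identifiers, KH.C6.129 for Neurog, KH.L24.10 for Ebf, KH.C2.42 for Pou4 and KH.L152.2 for Islet. All 4 were found among the 15284 gene models of the deposited tables, and all 4 passed the filter of a mean of at least 1 normalised read. The pairing of names and identifiers was not checked against an annotation.

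Plasmids were electroporated into dechorionated fertilised eggs, each with a coding sequence under the neural enhancer of Etr. Bra embryos received Etr1>Venus-Bra. Bra+Foxa.a embryos received Etr1>Venus-Bra with Etr1>Foxa.a-Myc, and Bra+Mnx embryos received Etr1>Venus-Bra with Etr1>Mnx-HA. Bra+Foxa.a+Mnx embryos received all 3 of these plasmids, and control embryos received Etr1>H2B-Venus. Every group thus carried an Etr-driven plasmid with Venus, and no group given Foxa.a or Mnx without Bra was analysed here. After growth at 21 °C to Hotta stage 19.5, each sample took 300 embryos, with 3 libraries in each of the 5 groups. The labels call the libraries of a group biological replicates and do not say whether they came from separate clutches, so p-values measure only the spread among these libraries, which may be technical in part. As background, the Etr enhancer restricts expression from the plasmids to neural cells, electroporated embryos take up plasmid mosaically, and RNA of the whole embryo holds every other tissue as well.

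Bra is the T-box factor that specifies the notochord, Foxa.a is a forkhead factor of the endoderm and notochord lineages, and Mnx is a homeodomain factor. Neurog is a basic helix-loop-helix proneural factor that starts neuronal fate in neural precursors. Ebf, of the COE family of helix-loop-helix factors, drives the differentiation of neurons, in Ciona among others those of the motor ganglion. Pou4 is a POU homeodomain factor of sensory neurons, and Islet is a LIM homeodomain factor that in vertebrates marks motor and sensory neurons. The series asks how Bra works with other factors in notochord fate, and the comparisons here show what became of the transcripts of these neuronal regulators when Bra, alone or with partners, was present in neural tissue.

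Each regulator was read many times in every library. Recovered reads per library ranged from 17689915 to 26460260. The lowest count of a regulator in any library was 187 reads for Neurog, 227 for Ebf, 101 for Pou4 and 179 for Islet. Levels below are normalised reads, recovered reads divided by 1 set of size factors over all 15 libraries. As a check of the labels, Foxa.a stood at 11676 to 14950 normalised reads in the 6 libraries given its plasmid. Without that plasmid it was at 6531 to 9953 in the 6 given Bra and at 5304 to 5853 in control. Mnx was at 1453 to 2950 in the 6 given its plasmid. Without that plasmid it was at 224 to 448 in the 6 given Bra and at 413 to 569 in control. Since the values are not divided by transcript length, levels are compared between groups and not between genes.

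Neurog was lower in every library given Bra than in every control library. In Bra embryos it stood at 349, 385 and 296 normalised reads in replicates 1, 2 and 3. Bra+Foxa.a embryos had 206, 256 and 249, and Bra+Mnx embryos had 338, 288 and 269. With all 3 factors the values were 215, 227 and 222, and control embryos had 619, 590.0 and 652. The 12 libraries given Bra thus ended at 385 and the controls began at 590.0, with no overlap. The group means ran upward in the order Bra+Foxa.a+Mnx (221 ± 5.69), Bra+Foxa.a (237 ± 27.3), Bra+Mnx (298 ± 35.7), Bra (344 ± 44.8) and control (620.4 ± 30.9, SD, n = 3 each). Of neighbours in this order, Bra+Foxa.a+Mnx overlapped with Bra+Foxa.a, and Bra+Mnx with Bra. The share of all genes apart like Bra+Foxa.a and Bra+Mnx was not counted.

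Ebf had the same separation. It stood at 443, 497 and 442 normalised reads in Bra embryos, at 235, 269 and 292 in Bra+Foxa.a embryos and at 334, 335 and 307 in Bra+Mnx embryos. Bra+Foxa.a+Mnx embryos had 219, 340.4 and 244, and control embryos had 634, 717 and 828. The highest of the 12 libraries given Bra was at 497, below the lowest control library at 634. From low to high the means were 265 ± 28.9 in Bra+Foxa.a, 268 ± 64.3 in Bra+Foxa.a+Mnx, 325 ± 15.9 in Bra+Mnx, 460.5 ± 31.5 in Bra and 727 ± 97.4 in control embryos (SD, n = 3 each). The ranges of the first 3 of these groups overlapped from each group to the next, whereas Bra stood above Bra+Mnx and control above Bra without overlap. The share of all genes apart like Bra and Bra+Mnx was not counted, so that gap is only described.

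Pou4 had its lowest means in the groups given Foxa.a and overlapped with control in Bra embryos. Its values were 196, 271 and 171 normalised reads in Bra embryos, 109, 132 and 129 in Bra+Foxa.a embryos and 138, 197 and 123 in Bra+Mnx embryos. With all 3 factors they were 104, 125 and 120.4, against 245, 352 and 236 in control embryos. Of the 12 libraries given Bra, 11 lay below the lowest control library, the exception being replicate 2 of Bra. Its lowest mean was 116 ± 11 in Bra+Foxa.a+Mnx, followed by Bra+Foxa.a (123 ± 12.9), Bra+Mnx (153 ± 39.1), Bra (213 ± 52.2) and control (278 ± 64.2, SD, n = 3 each), and each neighbour in this order overlapped with the next.

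Islet had the widest spread relative to its mean within each of the groups given Bra. It stood at 227, 368 and 208 normalised reads in Bra embryos and at 157, 250.1 and 188 in Bra+Foxa.a embryos. Bra+Mnx embryos had 182, 324 and 222, and embryos given all 3 factors had 147, 297 and 319. Control embryos had 318, 415 and 348. Of the 12 libraries given Bra, 9 lay below the lowest control library. The lowest mean was that of Bra+Foxa.a, at 199 ± 47.4, followed by 242 ± 73.3 in Bra+Mnx, 254 ± 93.9 in Bra+Foxa.a+Mnx, 267 ± 87.4 in Bra and 360.2 ± 49.4 in control embryos (SD, n = 3 each). No neighbours in this order were apart beyond their ranges.

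**Figure D1:**
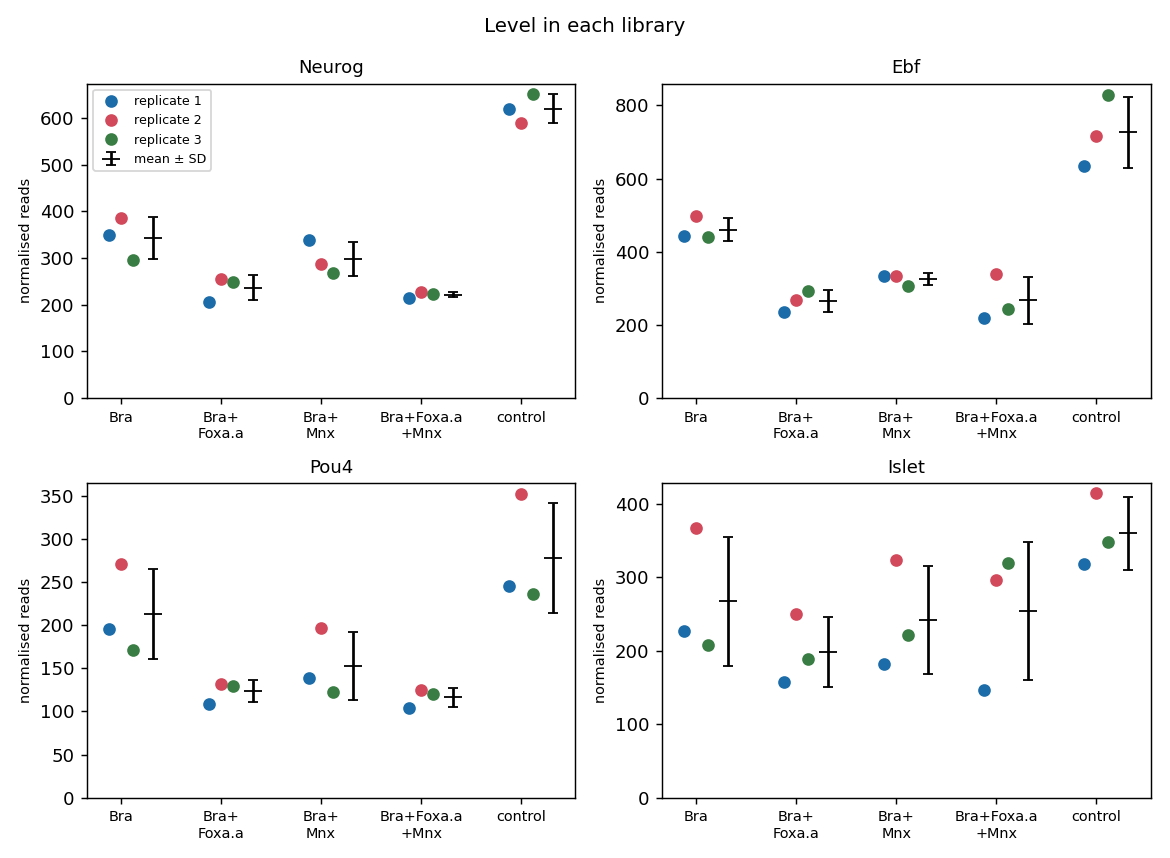
Normalised reads of Neurog, Ebf, Pou4 and Islet (vertical axes, starting at 0) in each of the 15 libraries by group, coloured by replicate number, with the group mean and SD in black (n = 3). All 12 libraries given Bra lie below the 3 control libraries for Neurog and Ebf, whereas 1 and 3 of them reach the control range for Pou4 and Islet.

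The spread of Pou4 and Islet within groups went with the replicate number, which the sample titles give. For both genes replicate 2 lay above its own group's mean in 5 of 5 groups and replicate 1 below it in 5 of 5. Replicate 2 of Islet was on average 0.37 above its group mean on the log2 scale and replicate 1 was 0.35 below. For Neurog the mean deviations by number stayed between -0.04 and 0.04. Replicates of the same number deviated together across all genes as well. A fit with the replicate number as a block is given wherever it changes a call of a regulator.

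Each group given Bra was compared with control within its own deposited table, with limma on log2(value + 1) over all genes and Benjamini-Hochberg adjustment. A gene was called where its adjusted p was under 0.05. Group was the only term, so this main fit leaves out the pairing by replicate number. With the number as a block, 4 of 4 regulators were called lower in each comparison. The share of all genes called lower was then 2.4% for Bra, 12% for Bra+Foxa.a, 6.57% for Bra+Mnx and 6.68% for Bra+Foxa.a+Mnx. The 4 comparisons share the same 3 control libraries. In bulk RNA, fewer cells of a type and less RNA per cell cannot be told apart.

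With Bra alone 1 of the 4 regulators fell by this test, Neurog, where 0.0703% of 14221 genes were called lower. On the authors' scale Neurog averaged 333 ± 42.5 normalised reads in Bra embryos, 55.3% of the control mean of 603 ± 31.2 (SD, n = 3 each), and Bra embryos had 45.4% to 65.2% of the control level of the same replicate number. The log2 fold change was -0.86 ± 0.15 (SE, adjusted p = 0.0282). This call was lost without control replicate 1, 2 or 3 or Bra replicate 2 or 3 (highest adjusted p = 0.148). Ebf was at 63.3% of control (log2 fold change -0.65 ± 0.14, adjusted p = 0.0869), without overlap of the groups, as in 3.11% of all genes in this direction. Islet was at 74.1% and Pou4 at 76.4% of control, both with overlapping groups and with 95% intervals of the log2 fold change of -1.0 to 0.07 and -0.92 to 0.15. With the replicate block all 4 fell, against 2.4% of all genes (limma, adjusted p = 3.23e-09 for Neurog, 4.15e-07 for Ebf, 0.00190 for Islet and 0.0159 for Pou4).

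With Bra and Foxa.a together, 3 of the 4 fell, where 1.33% of 14254 genes were called lower. Ebf averaged 36.5% of control (log2 fold change -1.45 ± 0.15, adjusted p = 0.00134), Neurog 38.2% (-1.39 ± 0.14, adjusted p = 0.00111) and Pou4 44.4% (-1.15 ± 0.20, adjusted p = 0.0158). The levels of Ebf relative to the same-numbered control were close together, from 35.3% to 37.6%. Islet averaged 207 ± 49.6 normalised reads in Bra+Foxa.a embryos, 55.1% of the 375 ± 51.6 in control embryos (SD, n = 3 each). Its log2 fold change of -0.87 ± 0.20 missed the threshold (limma, adjusted p = 0.0510) and passed it without Bra+Foxa.a replicate 2 (0.0356). Islet also passed with edgeR (1.31% of genes called lower), with DESeq2 (2.53%) and with the replicate block (12%, adjusted p = 4.17e-05). It passed as well for genes averaging at least 10 (201 of 12602 genes called lower), with TMM scaling (190 of 14256) and with total read scaling (197 of 14257). Bra+Foxa.a was the group in which all 4 genes lay below control without overlap, as did 8.19% of all genes. The call of Pou4 was lost when replicate 2 of control or replicate 3 of Bra+Foxa.a was left out (highest adjusted p = 0.0523).

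With Bra and Mnx, Ebf and Neurog fell, where 0.394% of 14222 genes were called lower. Ebf averaged 44.6% of control (log2 fold change -1.15 ± 0.14, adjusted p = 0.00743) and Neurog 48.0% (-1.06 ± 0.13, adjusted p = 0.00924). The call of Neurog was lost without control replicate 3 or Bra+Mnx replicate 2 (highest adjusted p = 0.0526). Pou4 was at 54.9% of control, with all 3 libraries below all controls, as in 6.2% of genes (log2 fold change -0.87 ± 0.24, adjusted p = 0.172), and Islet at 67.2% with overlap (-0.61 ± 0.23, adjusted p = 0.404). Both passed with the replicate block (adjusted p = 0.00115 for Pou4 and 0.00840 for Islet), where 6.57% of genes were called lower, and Pou4 also with DESeq2, where 1.24% were. Pou4 passed in 1 fit of all 15 libraries too, where 107 of 14260 genes were called lower.

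With all 3 factors Neurog, Ebf and Pou4 fell, where 1.16% of 14213 genes were called lower. Neurog averaged 218 ± 5.93 normalised reads in Bra+Foxa.a+Mnx embryos, 35.7% of the 610.2 ± 31.0 in control embryos (SD, n = 3 each). Its log2 fold change was -1.48 ± 0.12 (adjusted p = 4.73e-04). Ebf was at 36.8% of control (-1.46 ± 0.19, adjusted p = 0.00397) and Pou4 at 41.9% (-1.23 ± 0.20, adjusted p = 0.0118). All 3 lay below control without overlap, as in 7.53% of genes, and these 3 calls held without any 1 of the 6 libraries. Islet was at 70.6% of control with overlap (-0.57 ± 0.29, adjusted p = 0.518, and 0.0353 with the block, where 6.68% of genes were called lower). Its replicates were uneven, at 46.0% to 91.7% of the control of the same number.

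**Figure D2:**
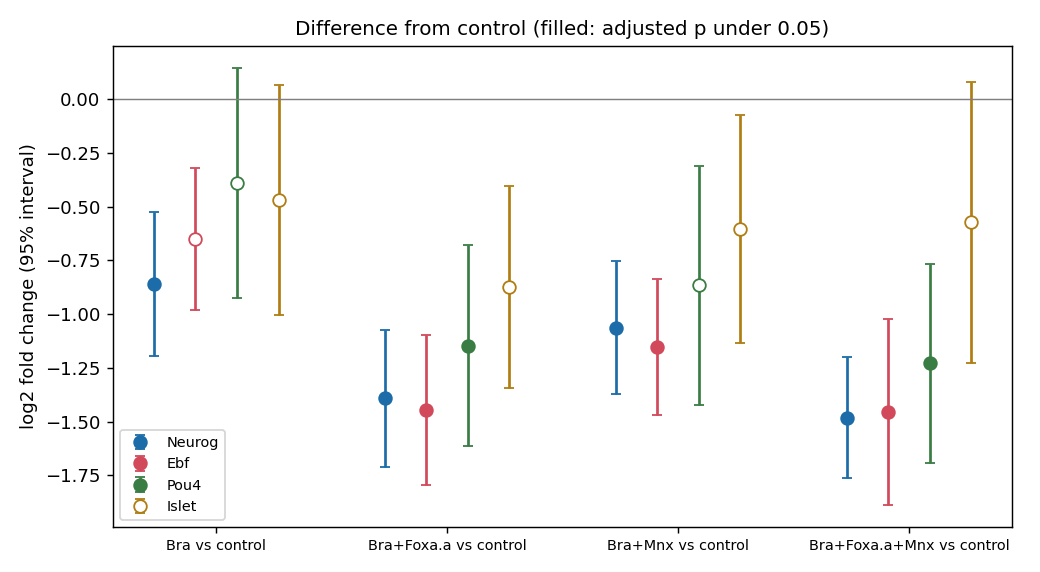
Log2 fold change against control (vertical axis, points, with 95% intervals as bars) for the 4 regulators in each group given Bra, 3 libraries against 3. Filled points have an adjusted p under 0.05 in the fit without the replicate block. All 16 points lie below 0, and the filled ones number 1 for Bra, 3 for Bra+Foxa.a, 2 for Bra+Mnx and 3 for Bra+Foxa.a+Mnx.

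A contrast of the mean of the 4 groups given Bra with control, in 1 fit of all 15 libraries, used the 12 libraries given Bra together. All of them lay below all controls for Neurog and Ebf, as in 1.4% of genes. Neurog differed by -1.20 ± 0.11 on the log2 scale (adjusted p = 6.14e-06), Ebf by -1.18 ± 0.13 (adjusted p = 3.76e-05) and Pou4 by -0.91 ± 0.18 (adjusted p = 0.00471, and 0.0579 without control replicate 2). Islet differed by -0.63 ± 0.25 (adjusted p = 0.205, and 0.00152 with the replicate block). The block left the other 3 called. So 3 of the 4 fell, against 1.76% of 14260 genes called lower, and 4 with the block, against 8.18%. By size of the difference Neurog was number 45 and Ebf number 50 from the lowest of all genes tested, Pou4 number 167 and Islet number 418. The median of the 4 was -1.04, beside -0.01 over all genes.

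**Figure D3:**
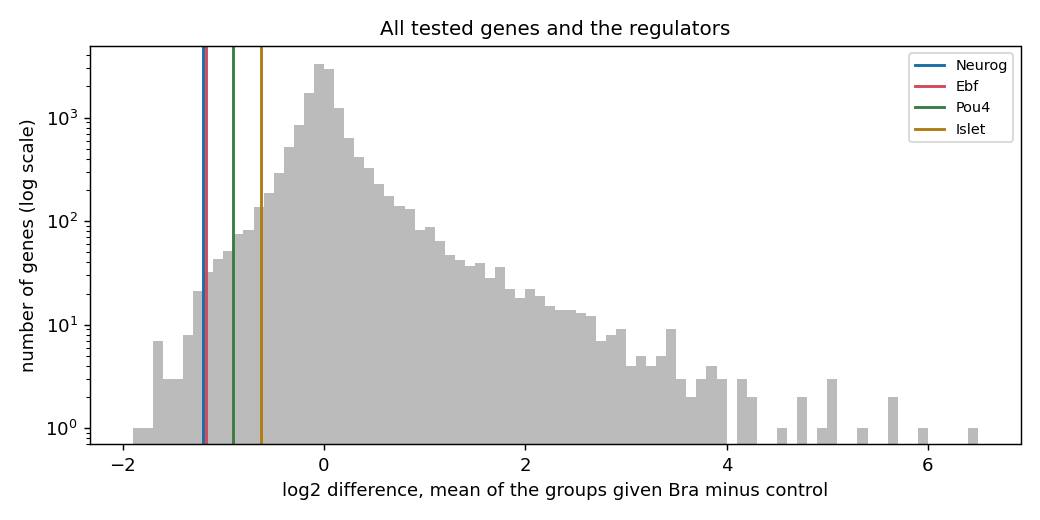
Number of genes (vertical axis, log scale) by log2 difference between the mean of the 4 groups given Bra and control (horizontal axis, bins of 0.1) for all 14260 genes tested, with coloured lines at the 4 regulators. All 4 lie in the left tail, with Neurog at -1.20 and Ebf at -1.18 farthest out. Pou4 at -0.91 (number 167 from the lowest) and Islet at -0.63 (number 418) follow.

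The 4 groups given Bra form an arrangement with and without Foxa.a and with and without Mnx, and the contrasts among them show how levels differed with each partner. Neurog and Ebf were lower where Foxa.a was given. Over the 6 libraries with Foxa.a, Neurog ran from 206 to 256 normalised reads with a median of 225, and over the 6 without it from 269 to 385 with a median of 317. The groups did not overlap, as in 0.245% of genes in this direction. The difference was -0.48 ± 0.09 on the log2 scale (adjusted p = 0.0335). It held within each replicate number, at -0.71, -0.47 and -0.26. Ebf ran from 219 to 340.4 with Foxa.a and from 307 to 497 without it (-0.55 ± 0.11, adjusted p = 0.0387).

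Pou4 ran from 104 to 132 normalised reads with Foxa.a and from 123 to 271 without it. Its difference was as large as that of Ebf but more spread (-0.56 ± 0.16, adjusted p = 0.168, and 8.02e-04 with the replicate block). Pou4 also passed with DESeq2, where 110 of 14260 genes were called lower. Islet overlapped widely, from 147 to 319 with Foxa.a and from 182 to 368 without it (-0.19 ± 0.22, 95% interval -0.66 to 0.28, adjusted p = 0.464 with the block). In all, 2 of the 4 fell with Foxa.a, against 0.217% of genes, and 3 with the block, against 3.5%. The call of Neurog survived the loss of control replicate 1 or 2, Bra replicate 3 or Bra+Mnx replicate 3 and was lost without any other library (highest adjusted p = 0.0878). That of Ebf survived the loss of control replicate 1, control replicate 3 or replicate 2 of Bra+Foxa.a+Mnx and was lost without any other (highest 0.111).

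None of the 4 passed for Mnx given against not given. The difference with Mnx was -0.15 ± 0.09 for Neurog (95% interval -0.35 to 0.06), -0.25 ± 0.11 for Ebf (-0.50 to -0.01), -0.28 ± 0.16 for Pou4 (-0.62 to 0.06) and 0.08 ± 0.22 for Islet (-0.39 to 0.56). The count of 0 of 4 was the same with limma, with edgeR, with DESeq2 and with the replicate block, and 1 of 4, Ebf, had an unadjusted p under 0.05, as had 3.07% of all genes in the same direction. Across all genes 0.4% were called lower with Mnx and 2.6% with the block. Within each replicate number the mean difference of Pou4 with Mnx was -0.28, -0.27 and -0.28. These are means of unlike values. In Bra+Mnx against Bra they were -0.50, -0.46 and -0.47, and in Bra+Foxa.a+Mnx against Bra+Foxa.a -0.06, -0.08 and -0.10.

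Whether the Foxa.a difference depended on Mnx was tested as an interaction, and 0 of 4 genes passed with limma, edgeR, DESeq2 or the block. At an unadjusted p under 0.05 there was 1 of 4, Ebf, with 0.407% of all genes in the same direction. The interaction was 0.11 ± 0.19 for Neurog, 0.49 ± 0.22 for Ebf, 0.39 ± 0.31 for Pou4 and 0.44 ± 0.44 for Islet on the log2 scale. The widest interval, that of Islet, ran from -0.51 to 1.38. Among all 14260 genes limma called 0 higher, the direction of the 4 regulators, with the block or without it. In the other direction it called 0% lower and, with the block, 0.00701%, which is 1 gene.

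**Figure D4:**
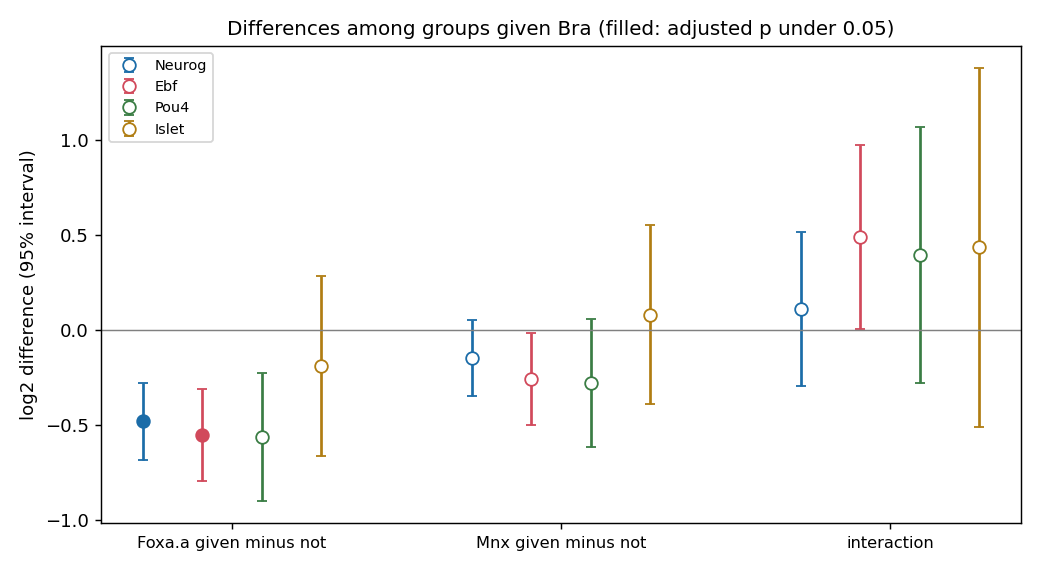
Log2 differences (vertical axis, points with 95% intervals) of the 4 regulators among the 12 libraries given Bra, for Foxa.a given minus not given, Mnx given minus not given, and the interaction. Filled points have an adjusted p under 0.05 in the fit without the replicate block. Neurog and Ebf are filled for Foxa.a, at -0.48 and -0.55, and all intervals but those of Ebf include 0 for Mnx and for the interaction.

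Single pairs of groups given Bra gave few calls. Bra+Foxa.a+Mnx against Bra had Neurog (-0.62 ± 0.13, adjusted p = 0.0481) and Ebf (-0.80 ± 0.16, adjusted p = 0.0350) lower, 2 of 4 against 0.456% of genes. Pou4 stood at -0.84 ± 0.22 there (adjusted p = 0.123, and 4.83e-04 with the block, where 3.96% of genes were called lower). It also passed with DESeq2, where 162 of 14260 genes were called lower. With the block the adjusted p (limma) was 0.00158 for Neurog and 2.42e-04 for Ebf. Without the block the calls of Neurog and Ebf were fragile. Neurog lost its call without any library other than Bra+Foxa.a replicate 1 and Bra+Mnx replicates 1 and 3 (highest adjusted p = 0.188). Ebf lost its call without Bra replicate 1, 2 or 3, Bra+Foxa.a replicate 2, Bra+Mnx replicate 2 or Bra+Foxa.a+Mnx replicate 1 or 3 (highest 0.162).

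Adding Foxa.a alone to Bra left 0 of 4 called with limma, where 0.0771% of genes were called lower, and 1 with edgeR, where 0.0842% were. It left 2 called with DESeq2, where 0.435% were, and 3 with the block, where 2.43% were (adjusted p = 4.75e-04 for Ebf, 0.00194 for Pou4 and 0.00863 for Neurog). At an unadjusted p under 0.05 in limma, 3 of 4 passed, against 2.55% of all genes in the same direction. Ebf, at an adjusted p of 0.0596 without the block, passed without Bra+Foxa.a+Mnx replicate 1 or 2 (lowest adjusted p = 0.0234).

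Adding Mnx alone to Bra left 0 of 4 called with limma, against 0.014% of genes, and 0 with edgeR and DESeq2. At an unadjusted p under 0.05 there was 1, Ebf, against 1.84% of genes, and Ebf fell with the block (-0.50 ± 0.12, adjusted p = 0.0425), where 0.835% of genes were called lower. The remaining 3 pairs of groups had 0 of 4 called by limma, edgeR, DESeq2 or the block. Among all genes limma called 0.217% lower in Bra+Foxa.a+Mnx against Bra+Foxa.a, 0.021% in Bra+Foxa.a+Mnx against Bra+Mnx and 0.0701% in Bra+Foxa.a against Bra+Mnx, and with the block 1.79%, 0.764% and 1.27% in the same order. At an unadjusted p under 0.05 0 of 4 were lower for Bra+Foxa.a+Mnx against Bra+Foxa.a (2.6% of genes). There was 1, Neurog, for Bra+Foxa.a+Mnx against Bra+Mnx (1.58%) and for Bra+Foxa.a against Bra+Mnx (1.64%). Between Bra+Foxa.a+Mnx and Bra+Foxa.a the differences were -0.09 ± 0.13 for Neurog (95% interval -0.38 to 0.20), -0.01 ± 0.16 for Ebf (-0.35 to 0.33), -0.08 ± 0.22 for Pou4 (-0.56 to 0.39) and 0.30 ± 0.31 for Islet (-0.37 to 0.97).

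Whether the 4 genes fell by different amounts was tested on the log2 ratio of each pair of genes within a library, which does not depend on library scaling. Only the change of a ratio is read, since the ratio itself depends on transcript lengths. The Neurog to Ebf ratio was -0.24 ± 0.19 in the 12 libraries given Bra and -0.22 ± 0.16 in the 3 control libraries (SD), a difference of -0.02 (exact permutation test, two-sided, p = 0.870). Neurog relative to Islet was 0.22 ± 0.43 in the libraries given Bra and 0.79 ± 0.25 in control, a difference of -0.57 (exact permutation test, p = 0.0484, adjusted p = 0.162 over 6 pairs). The difference for Ebf relative to Islet was -0.55 (exact permutation test, p = 0.0593, adjusted p = 0.162). None of the 6 pairs of genes passed after adjustment, and 1 had an unadjusted p under 0.05. The smallest p that these regroupings allow is 0.00220. Islet moved with the replicate number, so libraries were also regrouped only within a number, which allows a smallest p of 0.008. The exact permutation p was then 0.016 for Neurog relative to Islet, 0.048 for Neurog relative to Pou4 and 0.056 for Ebf relative to Islet, each with an adjusted p of 0.096. Neurog relative to Islet and Ebf relative to Islet were below the control of the same number in 12 of 12 libraries given Bra, which share 3 control libraries. Between the 6 libraries with Foxa.a and the 6 without it, 0 of the 6 pairs passed before or after adjustment (lowest exact permutation p = 0.0844, for Pou4 relative to Islet, adjusted p = 0.409).

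Beside the regulators 4 other neural genes were followed, whose identifiers were not checked against an annotation. These are Celf3/4/5/6 (KH.C6.128), the Etr gene whose enhancer drives the plasmids, Otx (KH.C4.84), the homeodomain factor that patterns the forebrain region, Tyr (KH.C12.469), which encodes the pigment enzyme tyrosinase, and Msx (KH.C2.957), a homeodomain factor of the neural plate border. In the mean of the groups given Bra against control, 3 of these 4 fell (limma), where 1.76% of all genes were called lower. Tyr fell by 1.27, Celf3/4/5/6 by 1.17 and Otx by 0.83 on the log2 scale, with Msx at -0.12 ± 0.24. This list and its identifiers were chosen with results of these data known. Summed over these 4 genes, libraries ran from 5676 to 11211 normalised reads over the groups given Bra and from 13325 to 16369 in control embryos, and no gene was at 0 in any library. With Foxa.a against without it, 0 of these 4 passed with limma, where 0.217% of all genes were called lower. Tyr (-0.52 ± 0.11, adjusted p = 0.00631), Celf3/4/5/6 (-0.38 ± 0.06, 6.82e-04) and Otx (-0.30 ± 0.06, 0.00353) fell with the replicate block, where 3.5% were. For Mnx given against not given, 3 of the 4 were likewise lower with the block, where 2.6% of genes were. Without the block 0 of the 4 were, where 0.4% of genes were. The median difference of the 4 was -0.34 in both contrasts.

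Each regulator was also set against the driver gene itself within a library. Celf3/4/5/6 ran from 3196 to 6337 normalised reads in the 12 libraries given Bra and from 8429 to 10180 in the 3 control libraries. The Ebf to Celf3/4/5/6 log2 ratio was -3.72 ± 0.13 in libraries given Bra and -3.71 ± 0.09 in control (SD, n = 12 and 3), a difference of -0.01 (exact permutation test, p = 0.903). For Neurog the ratio was -3.97 ± 0.14 in libraries given Bra and -3.93 ± 0.16 in control, a difference of -0.03 (exact permutation test, p = 0.745). Pou4 relative to Celf3/4/5/6 differed by 0.26 (exact permutation test, p = 0.0857, adjusted p = 0.171 over 4 genes). Islet relative to Celf3/4/5/6 was -4.19 ± 0.41 in libraries given Bra and -4.72 ± 0.14 in control, a difference of 0.54 (exact permutation test, p = 0.0396, adjusted p = 0.158). These 4 ratios were chosen after the values had been seen, and none passed after adjustment. Regrouped only within a replicate number, the exact permutation p for Islet was 0.04 (adjusted p = 0.144), and its ratio was above the control of the same number in 12 of 12 libraries given Bra.

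With Foxa.a against without it, the ratio of Ebf to Celf3/4/5/6 was -3.81 ± 0.12 with Foxa.a and -3.64 ± 0.05 without it (SD, n = 6 each), a difference of -0.17 (exact permutation test, p = 0.0195, adjusted p = 0.0779 over 4 genes). The other 3 ratios to the driver gene had exact permutation p-values of at least 0.126 there.

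**Figure D5:**
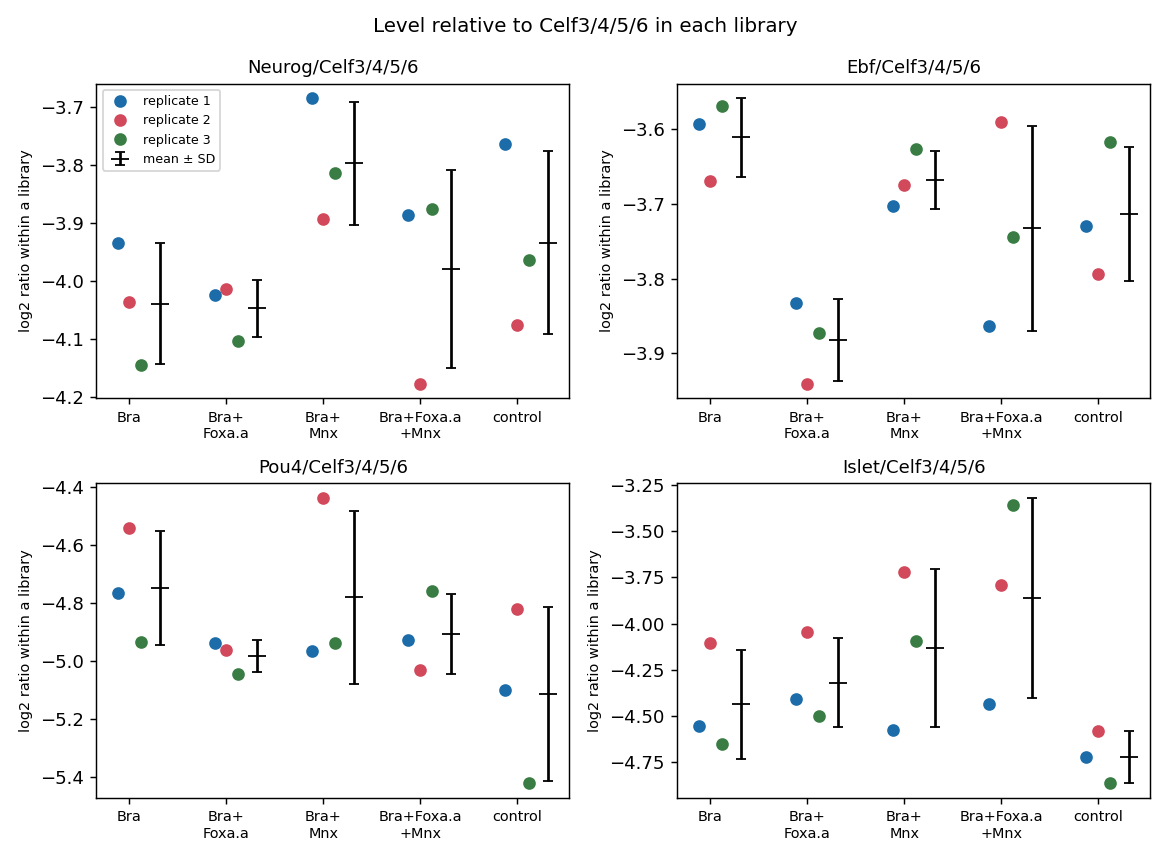
Log2 ratio of each regulator to Celf3/4/5/6 within a library (vertical axes, each on its own range) for the 15 libraries by group, coloured by replicate number, with the group mean and SD in black (n = 3). The ratios of Neurog and Ebf in control lie within the range of the groups given Bra, and those of Islet in control, from -4.87 to -4.58, reach below the lowest library given Bra, at -4.65.

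Gene models with the most similar course over the 15 libraries were sought by the root mean square difference of log2 levels after each gene was centred on its own mean. For Ebf the closest of 14259 other genes was Celf3/4/5/6 itself, at 0.113, where the median gene was at 0.629. For Neurog it was KH.C11.417 at 0.129, with Celf3/4/5/6 next at 0.137 and Ebf number 9 at 0.177. The mean of KH.C11.417 was 654 normalised reads in Bra, 525 in Bra+Mnx, 454.6 in Bra+Foxa.a and 443 in Bra+Foxa.a+Mnx embryos, against 1058 in control embryos.

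Pou4 was closest to KH.L50.6 (0.184), and Ebf and Neurog were numbers 39 and 51 from it. Islet was closest to KH.C1.983 (0.191), where the median gene was at 0.520. From Islet, Pou4 was number 508 at 0.342, Ebf number 2938 at 0.430 and Neurog number 3308 at 0.439. By this measure Neurog and Ebf ran alike, Pou4 stood between, and Islet was apart from both. The measure also counts the spread by replicate number, where Islet deviated on average by -0.35 in replicate 1 and 0.37 in replicate 2. The part of that spread in these distances was not tested.

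The electroporated genes and markers of other tissues also differed between these groups. Total reads of Bra, from plasmid and genome together, ran from 798 to 1618 normalised reads in the libraries given Bra and from 556 to 793 in control. Foxa.a was higher than in control without its plasmid too. In Bra+Mnx it was 0.62 ± 0.12 higher on the log2 scale (limma, adjusted p = 0.0489), where 209 of 14222 genes were called higher. In Bra it was 0.37 higher (adjusted p = 0.413, and 6.89e-04 with the replicate block, where 1010 of 14221 genes were called higher). Bra was 0.29 ± 0.13 higher on the log2 scale where Foxa.a was given too, a difference with an adjusted p of 0.675, and of 0.0287 with the replicate block. Tbx2/3 (KH.L96.87), which belongs to the T-box family and is active in the notochord, rose by 0.49 ± 0.10 in the mean of the groups given Bra (adjusted p = 0.00614). Of markers of other tissues, 0 of 1 for muscle (Mrf, KH.C14.307) and 0 of 3 for the heart lineage (Nkx2-5, KH.C8.482, Hand-r, KH.C1.1116, and Foxf, KH.C3.170) passed in that contrast (limma). There 1.76% of all genes were called lower and 661 of 14260 higher.

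Mrf stood at -0.35 ± 0.11 (adjusted p = 0.0902, and 0.00363 with the replicate block). Of the heart lineage markers Hand-r was higher (0.25 ± 0.06, adjusted p = 0.00642) and Foxf lower (-0.21 ± 0.06, adjusted p = 0.0253) with the block. With the block 1530 of 14260 genes were called higher and 8.18% lower. Mrf ran from 1375 to 2455 normalised reads in the libraries given Bra and from 2299 to 2567 in control, and the heart lineage markers together from 4778 to 6603 in the libraries given Bra and from 5561 to 6706 in control. Where Foxa.a was given, Hand-r (0.31 ± 0.05, adjusted p = 0.00149) and Tbx2/3 (0.23 ± 0.06, adjusted p = 0.0193) were also higher with the block, as were 472 of 14260 genes. Neither passed without the block, and Mrf, Nkx2-5 and Foxf passed in neither fit. Where Mnx was given, 1 of the 3 heart lineage markers was lower with the block, where 2.6% of genes were, and 0 without it. None of these genes was at 0 in any library, and their part and that of Bra and Foxa.a levels in the differences of the regulators was not tested.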

How the data were processed

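The 15 RNA-seq libraries of whole embryos fall into 5 groups. The authors deposited 4 tables, 1 per group given Bra, each with the same 3 control libraries. The deposited values are a signal, read counts divided by a size factor, called counts normalized to library size per the file headers. DESeq 1.8.1 and TopHat2 2.9.8b were used, per the submitters' processing notes. The genome build, the read counter and the handling of strand and of shared reads were not given in the sources used here. A further 24 columns of log values were not used.

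Dividing by the smallest step gave whole numbers within 0.01 for 100% of values in the 24 columns used, and the 9 repeated control columns gave identical reads, although their steps differed, so each table was normalised separately. Comparisons with control used limma 3.58.1 (R 4.3.3) on log2(value + 1) inside each table, for genes averaging at least 1, with group as the only term, an intensity trend and Benjamini-Hochberg adjustment. Contrasts among groups given Bra, and averages, used 1 limma fit of the 15 libraries after median-of-ratios scaling of the recovered reads. Fold changes on this scale slightly understate those of low genes. Gene ratios used exact permutation tests, free and within a replicate number. The procedure was tested on simulated data: of genes changed by 1 on the log2 scale, limma recovered 67.0% in Bra+Foxa.a against control (14254 genes), with 14 false calls. There edgeR recovered 71% and DESeq2 84%, with 15 and 39 false calls. For Foxa.a given against not given limma recovered 94%, and for the mean of the groups given Bra against control 71%. The changed genes were not low ones, and the simulated libraries had no shared deviation by replicate number, unlike the real ones.

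Replicate numbers come from the titles. Deviations from group means over 14260 genes correlated at 0.55 to 0.72 in all 30 same-numbered pairs of libraries and at -0.44 to -0.12 in the 60 others. The numbers were therefore taken to pair the samples. The main fits and the fits leaving out a library do not use this pairing. The replicate block is given where it changes a call of a regulator, and only in part for the other listed genes. Alternatives were the pseudocount, the filter, TMM and total-read scaling, edgeR 4.0.16, DESeq2 1.42.0, the block, 1 joint fit, and leaving out each library. The members, lists and tests were chosen with earlier results of these data known. Named genes are the 4 regulators, 12 listed genes and the closest gene model to each regulator. The reference table holds no KH identifiers, so no sequence or coordinate is shown.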

Additional observations from a re-analysis of the deposited data

How the results depend on the processing

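The number of the 4 regulators called was within 1.5 times that reported, save in these cases. In Bra against control it was 2 with DESeq2 (41 of 14221 genes called lower) and 2 in 1 fit of 15 libraries (20 of 14260). There it was 4 with the replicate block (2.4%) and 0 to 1 when 1 library was left out (0 to 8 genes called lower). In Bra+Mnx against control it was 4 with the block (6.57%) and 1 to 2 with a library left out (10 to 57 genes called lower). For Bra+Foxa.a against Bra it was 1 with edgeR (0.0842%), 2 with DESeq2 (0.435%) and 3 with the block (2.43%). With a library left out it was 0 to 1 there (0 to 11 genes called lower). For Bra+Mnx against Bra it was 1 with the block (0.835%). For Bra+Foxa.a+Mnx against Bra it was 1 without a filter (58 of 14979 genes called lower) and 1 with total read scaling (55 of 14259). With a library left out it was 0 to 2 there (11 to 73 genes). For Foxa.a given against not given it was 0 to 2 with a library left out (11 to 37 genes). The block ended no call of a regulator and changed no call of a regulator other than those given.

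Differences that changed sign were small ones that had not passed. Ebf in Bra+Foxa.a+Mnx against Bra+Foxa.a was at 0.0080 with edgeR, 0.0072 with DESeq2 and -0.19 to 0.12 with a library left out. With a library left out, Islet ran from -0.36 to 0.12 in Bra+Mnx against Bra, from -0.31 to 0.25 in Bra+Foxa.a+Mnx against Bra, from -0.17 to 0.39 in Bra+Foxa.a+Mnx against Bra+Mnx and from -0.032 to 0.26 for Mnx given against not given. With a replicate number left out, the change of the Neurog to Ebf ratio with Bra ran from -0.065 to 0.017, of Neurog to Celf3/4/5/6 from -0.070 to 0.012 and of Ebf to Celf3/4/5/6 from -0.052 to 0.028. With Foxa.a the change of Neurog to Pou4 ran from -0.061 to 0.17 and of Ebf to Pou4 from -0.19 to 0.14. The causes were not tested. The count of all genes called in Bra against control was 212, against 411 with DESeq2, 1351 with the block and 49 to 283 with a library left out. Over the comparisons other than the interaction the block called 189 to 3472 genes, against 4 to 912 without it. For the interaction limma called 0 genes, and DESeq2 and the block 1 each.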
